A study of Homo sapiens with 6 samples.

Results

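Solute carriers are membrane proteins that move small molecules across membranes without spending ATP directly, and their SLC symbols number the family, the letter and the member. The members described here were all genes with a probe set of 1 symbol that reads SLC, number, capital letter or letters, number, without the mitochondrial SLC25 family and without 15 further symbols that the rule leaves out. The rule found 18 genes among 14884 named genes. RefSeq lists 380 symbols of this form, and the platform annotation named 20 of them, 2 of the 20 in SLC25. It gave no symbol to 32046 of the 48144 probe sets, so other carriers may be on the array without a name here. Genes called measured below are those that it named. The remaining symbols were not analysed here, so the 18 are not a sample of the whole superfamily. Each of the 18 genes had 1 probe set.

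RNA came from the established cell line Caco-2, derived from a human colon carcinoma, whose cells take on features of absorptive enterocytes when cultured. Cells received lentivirus before they were confluent and were sampled 17 days later, and each group held 2 Affymetrix arrays, 1 per sample. Control cells expressed scramble shRNA, and the remaining cells expressed FAM46A-shRNA#2 or FAM46A-shRNA#4, different hairpins that target FAM46A, a gene for a poly(A) polymerase of the non-canonical type. All 3 groups share the cell line and the lentiviral delivery of a hairpin, and the comparisons ask which transcripts differ after depletion of FAM46A. The level of FAM46A was not analysed here, so the groups rest on the labels alone. In the deposited table each probe set was centred on its median over the 6 arrays, so a value of 0 marks that median and only differences between arrays can be read, not levels. For the same reason the identity of the cells could not be checked against the absence of markers. Errors after ± are standard errors (SE) of a limma fit with n = 2 arrays per group. Over all probe sets, the correlation of the replicates within a group ranged from 0.524 to 0.768. These are correlations of the centred values, which between arrays of different groups ran from -0.36 to -0.16, and they cannot be read as correlations of expression levels.

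The working name of this gene set is plasma membrane solute carriers, and the known biology of the measured members goes against that name. Most of them received an SLC symbol after an earlier one (MFSD14A for SLC71A1, DIRC2 for SLC49A4, PQLC2 for SLC66A1), and several work on lysosomal, Golgi or ER membranes. Lysosomal carriers return amino acids and other breakdown products to the cytosol, and carriers of the Golgi bring in the nucleotide sugars used for glycosylation. Many members belong to the major facilitator superfamily, a large group of transporters with a shared fold, and for several of these the substrate is little known. RNA values do not show where a protein sits, so the genes are called solute carriers below, and 11 of the 18 belong to SLC families outside the substrate classes used here.

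Of the 18 solute carriers, 6 fell and 3 rose when the mean of both hairpins was set against scramble (limma, called at a Benjamini-Hochberg adjusted p under 0.05 over all genes). Over all 14884 genes, 25.4% were called in this comparison, 14.8% higher and 10.6% lower. The called solute carriers were 50% of the 18, with 33.3% lower and 16.7% higher. In this fit the share that fell was thus above the background and the share that rose was close to it. The median change of the 18 was -0.16 on the log2 scale against 0.0028 for all genes, and the median size of a change regardless of sign was 0.25 against 0.09. With the 4 hairpin arrays treated as a single group, 2 fell and 2 rose, and no share of all genes was recorded for that fit. Without replicate 1 of scramble the calls of SLC35D4, SLC66A3, SLC67A2, SLC71A2 and SLC75A1 ended. The share of all genes called without that array was not recorded. All 4 hairpin arrays lay on the same side of both scramble arrays for 10 of the 18 (55.6%), against 36.2% of all genes. In 7 of the 10 they lay below scramble and in 3 above, against 16.7% and 19.5% of all genes.

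**Figure D1:**
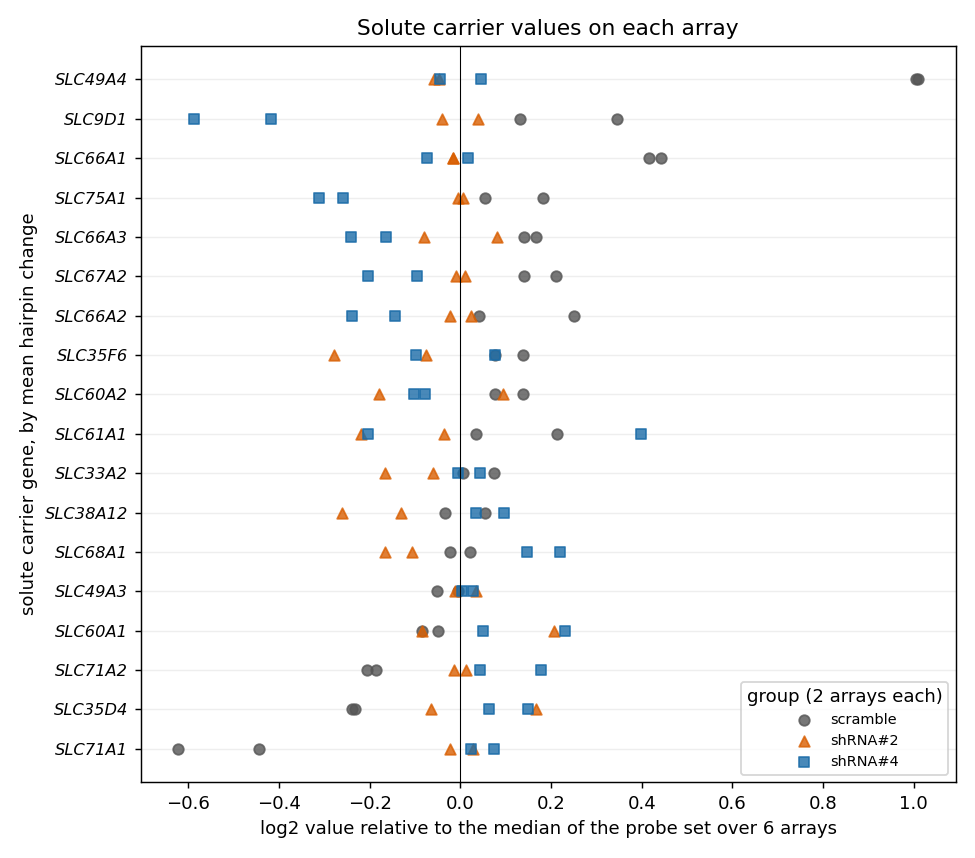
Log2 value relative to the probe set median (x axis) of the 18 solute carriers (y axis, ordered by mean change) on the 6 arrays, 1 point per array, with circles for scramble, triangles for shRNA#2 and squares for shRNA#4. The scramble arrays stand at 1.004 and 1.011 for SLC49A4, far above its 4 hairpin arrays, and at -0.62 and -0.44 for SLC71A1, below its 4 hairpin arrays.

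SLC49A4, SLC66A1, SLC71A1 and SLC9D1 kept their calls for the mean of both hairpins whichever array was left out. With the 4 hairpin arrays treated as a single group, SLC9D1 was not called. Since the main results turn on these 4 genes, their promoters are shown as the 250 bases before the RefSeq start site (GRCh38.p14, 5′ to 3′ on the strand of the gene), with the GC box GGGCGG, an element bound by SP-family factors, in capitals on either strand.
SLC49A4, chr3:122794819-122795068, plus strand: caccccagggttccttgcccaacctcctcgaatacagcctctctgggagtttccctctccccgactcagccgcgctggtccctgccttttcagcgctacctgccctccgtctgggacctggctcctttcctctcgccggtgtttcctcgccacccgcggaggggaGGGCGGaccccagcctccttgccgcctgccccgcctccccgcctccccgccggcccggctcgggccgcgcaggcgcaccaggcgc
SLC66A1, chr1:19312076-19312325, plus strand: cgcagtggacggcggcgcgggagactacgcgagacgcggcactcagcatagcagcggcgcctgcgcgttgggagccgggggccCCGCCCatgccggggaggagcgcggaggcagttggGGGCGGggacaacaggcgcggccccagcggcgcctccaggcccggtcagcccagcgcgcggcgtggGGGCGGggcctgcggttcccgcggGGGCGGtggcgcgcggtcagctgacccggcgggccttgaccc
SLC71A1, chr1:100037845-100038094, plus strand: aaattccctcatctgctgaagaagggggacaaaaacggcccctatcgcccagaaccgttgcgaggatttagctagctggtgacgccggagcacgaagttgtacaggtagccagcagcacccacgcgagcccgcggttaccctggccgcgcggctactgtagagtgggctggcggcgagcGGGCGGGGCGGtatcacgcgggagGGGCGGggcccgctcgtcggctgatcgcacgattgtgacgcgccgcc
SLC9D1, chr13:113490771-113491020, plus strand: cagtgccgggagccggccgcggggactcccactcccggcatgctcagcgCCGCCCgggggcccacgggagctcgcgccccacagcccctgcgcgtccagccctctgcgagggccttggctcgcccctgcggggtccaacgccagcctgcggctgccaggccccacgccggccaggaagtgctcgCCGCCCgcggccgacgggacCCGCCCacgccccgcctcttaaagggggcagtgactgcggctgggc
Promoters were matched for 14 of the 18 genes, all except SLC33A2, SLC35D4, SLC35F6 and SLC66A2. The 14 genes had 15 such windows, since the RefSeq table holds a pair of windows for SLC75A1. The GC box was found in 13 of the 15 windows, which belong to 13 genes, against 42.6% of all 35116 RefSeq promoters of the same length and 53.7% of those of protein-coding genes. SLC49A4 held 1, SLC71A1 and SLC9D1 held 3 each and SLC66A1 held 4. In SLC71A1 a pair of them overlaps. Any link between the GC box and the direction of change was not tested. The E-box CACGTG, which reads the same on both strands and is the core of the element bound by TFEB at lysosomal genes, was in 1 of the 15 windows, that of SLC60A2, and in 6.35% of all promoters. The CCAAT box was in 3 of the 15, those of SLC38A12, SLC61A1 and SLC68A1, and in 32.01% of all promoters. These matches describe letters in 250 bases and say nothing of whether a factor binds.

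Of the members found by the rule, SLC49A4 had the largest change. Lysosomal carriers were not tested as a group. SLC49A4 encodes a transporter of the lysosomal membrane and was first described as a gene disrupted by a translocation in renal cancer. Its values were 1.004 and 1.011 on the scramble arrays, -0.06 and -0.05 with shRNA#2, and -0.05 and 0.05 with shRNA#4. Both scramble arrays were high, the 4 hairpin arrays were low and close together, and the groups did not overlap. Against scramble, SLC49A4 fell by 1.03 ± 0.045 in the mean of both hairpins, 2.05-fold (limma adjusted p 0.000179), and it was the only solute carrier that changed by at least 2-fold, as 1.38% of all genes did. The fall was 1.06 ± 0.052 with shRNA#2 and 1.01 ± 0.052 with shRNA#4. By size, regardless of sign, it stood at the 98.7th percentile of all genes. Its relative SLC49A3, formerly MFSD7, was at -0.05 and -0.004 with scramble, 0.03 and -0.01 with shRNA#2, and 0.03 and 0.004 with shRNA#4, and was not called (0.04 ± 0.043, limma adjusted p 0.579). Of this family FLVCR1, the gene of a heme and choline transporter, which RefSeq also lists under an SLC symbol, fell by 0.86 ± 0.061 (limma adjusted p 0.000491). FLVCR1 was named after its value was seen.

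The SLC66 family carries the PQ-loop fold. SLC66A1 exports cationic amino acids from the lysosome. It stood at 0.42 and 0.44 on the scramble arrays, at -0.02 and -0.02 with shRNA#2, and at -0.07 and 0.02 with shRNA#4. Again both scramble arrays were above all 4 hairpin arrays, and the hairpin groups overlapped. SLC66A1 fell by 0.45 ± 0.045 (1.37-fold, limma adjusted p 0.0013), with falls of 0.45 ± 0.052 for shRNA#2 and 0.46 ± 0.052 for shRNA#4. SLC66A3, whose values were 0.17 and 0.14 with scramble, -0.08 and 0.08 with shRNA#2 and -0.24 and -0.16 with shRNA#4, fell by 0.25 ± 0.059 (limma adjusted p 0.0245). Here the shRNA#2 arrays lay between the other groups, with no overlap. The call of SLC66A3 ended without replicate 1 or replicate 2 of scramble and without replicate 1 of shRNA#4. It also ended with the 4 hairpin arrays as a single group. SLC66A2 stood at 0.25 and 0.04 with scramble, -0.02 and 0.02 with shRNA#2 and -0.24 and -0.14 with shRNA#4. Its scramble arrays were far apart, and with -0.24 ± 0.070 (limma adjusted p 0.0507) it missed the threshold in the mean of both hairpins. With shRNA#4 alone SLC66A2 fell by 0.34 ± 0.080 (limma adjusted p 0.0259), a call that ended without replicate 1 of scramble or either replicate of shRNA#4.

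The largest rise was in SLC71A1, a major facilitator protein also known as MFSD14A or HIAT1. Its values were -0.62 and -0.44 on the scramble arrays, -0.02 and 0.03 with shRNA#2, and 0.02 and 0.07 with shRNA#4. Scramble was low, with a gap of 0.178 between its own arrays, and the hairpin groups overlapped. SLC71A1 rose by 0.56 ± 0.062 (1.47-fold, limma adjusted p 0.00171), by 0.54 ± 0.071 with shRNA#2 and 0.58 ± 0.071 with shRNA#4. The paralog SLC71A2 (MFSD14B) stood at -0.21 and -0.19 with scramble, -0.01 and 0.01 with shRNA#2 and 0.04 and 0.18 with shRNA#4. It rose as well, by 0.25 ± 0.052 (limma adjusted p 0.016). That call ended without either scramble replicate, without replicate 2 of shRNA#2 and with the 4 hairpin arrays as a single group. How far the probe sets of such paralogs cross-hybridise was not analysed here.

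Of the other major facilitator members, SLC75A1 and SLC67A2 fell. SLC75A1, formerly MFSD10 or TETRAN, was at 0.18 and 0.05 with scramble, 0.01 and -0.01 with shRNA#2, and -0.26 and -0.31 with shRNA#4. It fell by 0.26 ± 0.052 (limma adjusted p 0.0139), and both shRNA#4 arrays were the lowest. SLC67A2 (MFSD9), with 0.21 and 0.14 for scramble, -0.01 and 0.01 for shRNA#2 and -0.20 and -0.10 for shRNA#4, fell by 0.25 ± 0.050 (limma adjusted p 0.0145). In both genes the shRNA#2 arrays lay between the other groups. Both calls ended without replicate 1 of scramble and with the 4 hairpin arrays as a single group.

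The remaining major facilitator members were not called in the mean of both hairpins. SLC60A1 (MFSD4A) gave 0.17 ± 0.094, and its shRNA#2 arrays were 0.291 apart. Its relative SLC60A2, also named NaGLT1 for sodium-dependent glucose transport, gave -0.17 ± 0.080 with a gap of 0.275 between the shRNA#2 arrays. SLC61A1 (MFSD5), a molybdate transporter, gave -0.14 ± 0.17, the largest SE of the 18, and its shRNA#4 arrays stood at -0.20 and 0.40. SLC33A2 (MFSD3), a relative of the acetyl-CoA transporter of the ER, gave -0.09 ± 0.0515, and SLC68A1 gave 0.02 ± 0.047. The limma adjusted p-values of these 5 genes ran from 0.184 for SLC60A2 to 0.806 for SLC68A1. A change of the size seen in SLC75A1 would be hard to call in SLC61A1 at this spread.

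SLC9D1, formerly TMCO3, is placed by its symbol with the sodium-proton exchangers. It was at 0.34 and 0.13 on the scramble arrays, 0.04 and -0.04 with shRNA#2, and -0.42 and -0.59 with shRNA#4. The 3 groups formed 3 separate steps, with shRNA#4 lowest. SLC9D1 fell by 0.49 ± 0.080 in the mean of both hairpins (1.40-fold, limma adjusted p 0.00687) and by 0.74 ± 0.093 with shRNA#4, while the change with shRNA#2 was -0.24 ± 0.093 (limma adjusted p 0.134).

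Of the 3 genes from families of the Golgi and ER, SLC35D4, SLC35F6 and SLC33A2, 1 was called (33.3%, against 25.4% of all genes). SLC35D4, formerly TMEM241, belongs to the family of nucleotide sugar transporters. It stood at -0.24 and -0.23 with scramble, 0.17 and -0.06 with shRNA#2 and 0.06 and 0.15 with shRNA#4, so that all 4 hairpin arrays were above scramble and the hairpin groups overlapped. SLC35D4 rose by 0.31 ± 0.072 (limma adjusted p 0.0234), and the call ended without replicate 1 or replicate 2 of scramble and without replicate 2 of shRNA#4, with quantile normalization and with all probe sets in the fit. SLC35F6 was at 0.14 and 0.08 with scramble, -0.28 and -0.08 with shRNA#2 and -0.10 and 0.08 with shRNA#4, and with -0.20 ± 0.078 (limma adjusted p 0.124) was not called. SLC38A12 (TMEM104), numbered with a family of amino acid transporters, was not called either (-0.08 ± 0.057, limma adjusted p 0.437).

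**Figure D2:**
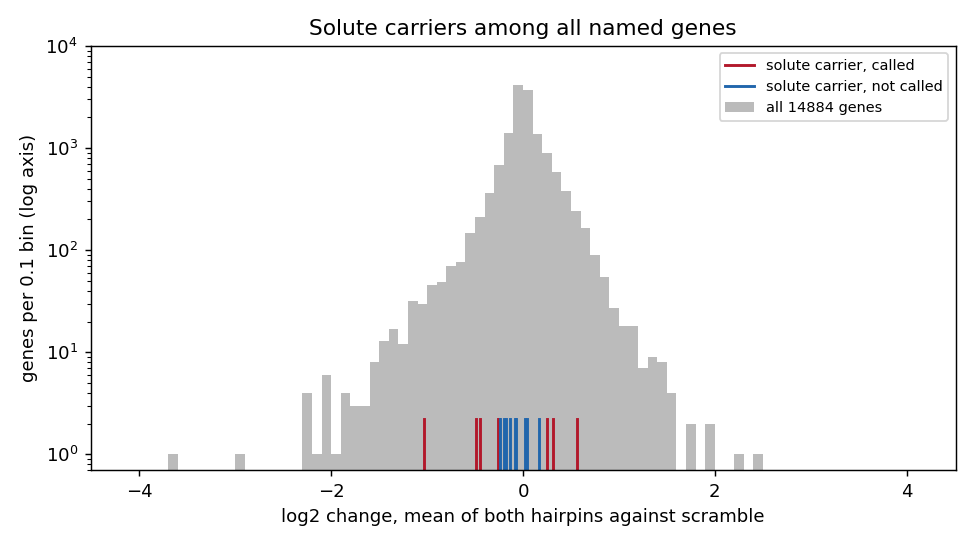
Number of genes (log axis) by log2 change (both hairpins averaged, against scramble), in bins of 0.1, over all 14884 named genes, with a short line for each of the 18 solute carriers, red where called and blue where not. The solute carriers run from -1.03 for SLC49A4 to 0.56 for SLC71A1, inside a range of -3.70 to 2.49 for all genes.

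Taken singly, the hairpins called different numbers of solute carriers. With shRNA#2 against scramble 2 of the 18 fell (SLC49A4 and SLC66A1) and 1 rose (SLC71A1), 16.7% against 21.6% of all genes, of which 9.54% fell and 12.1% rose. With shRNA#4 against scramble 7 fell and 3 rose, 55.6% against 26.1% of all genes, of which 10.4% fell and 15.7% rose. SLC49A4, SLC66A1 and SLC71A1 were called with each hairpin in the same direction, 16.7% of the members against 13.7% of all genes. Both comparisons share the scramble arrays, so they are not independent. Without replicate 1 of scramble the shRNA#4 calls of SLC35D4, SLC66A2, SLC66A3, SLC67A2 and SLC71A2 ended, and the shRNA#2 calls stayed. The share of all genes called without that array was not recorded. A gene called with shRNA#4 and not with shRNA#2 is not thereby shown to differ between them.

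**Figure D3:**
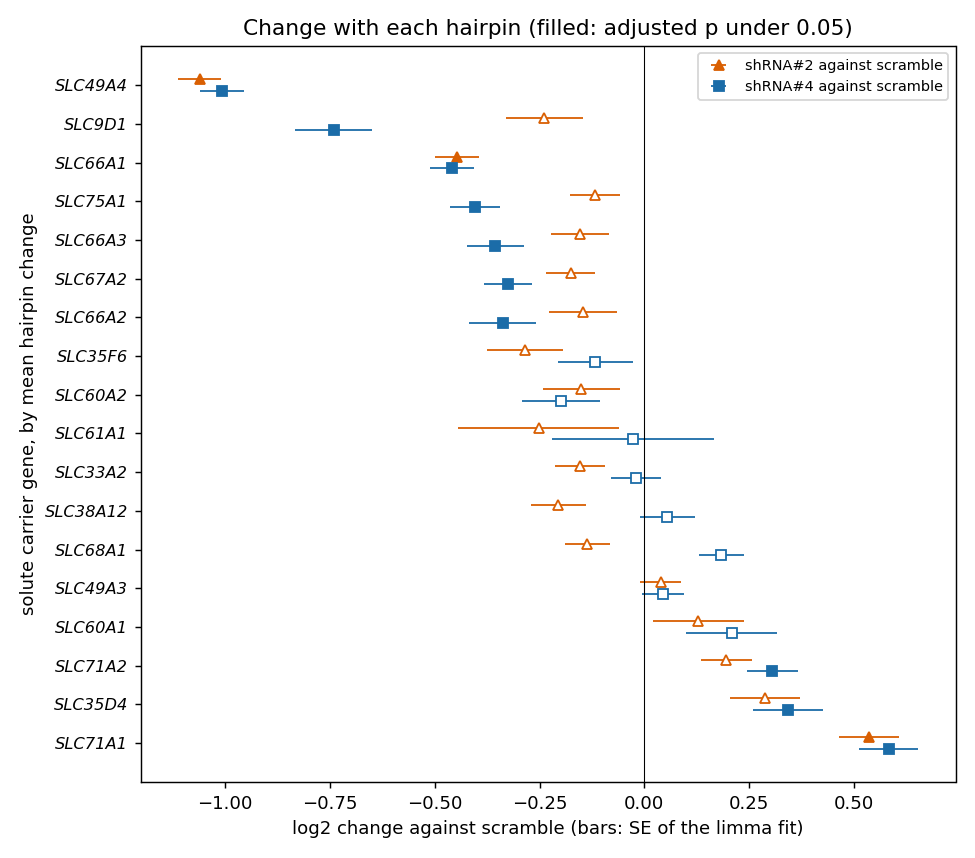
Log2 change against scramble (x axis, bars are SE) of each solute carrier (y axis) with shRNA#2 (triangles) and shRNA#4 (squares), filled where the limma adjusted p was under 0.05. The changes of SLC49A4, SLC66A1 and SLC71A1 are filled for both hairpins, and SLC9D1 shows the widest gap between the hairpins, with -0.24 and -0.74.

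The difference itself was tested with shRNA#2 against shRNA#4, in which 4 of the 18 solute carriers were called (22.2%), against 15.3% of all genes. They were 2 higher and 2 lower with shRNA#2, as 6.64% and 8.63% of all genes were. SLC9D1 was higher with shRNA#2 by 0.50 ± 0.093 (1.42-fold, limma adjusted p 0.0182) and SLC75A1 by 0.28 ± 0.060 (limma adjusted p 0.0273). SLC68A1, a membrane protein formerly named TMEM180, stood at -0.02 and 0.02 with scramble, -0.17 and -0.11 with shRNA#2, and 0.15 and 0.22 with shRNA#4. The hairpin groups of SLC68A1 thus lay on opposite sides of scramble, and shRNA#2 against shRNA#4 gave -0.32 ± 0.054 (limma adjusted p 0.014). Against scramble neither hairpin was called for SLC68A1, with -0.14 ± 0.054 for shRNA#2 and 0.18 ± 0.054 for shRNA#4. SLC38A12 was at 0.05 and -0.03 with scramble, -0.26 and -0.13 with shRNA#2 and 0.10 and 0.03 with shRNA#4, and gave -0.26 ± 0.066 between the hairpins (limma adjusted p 0.0491). That call ended in 10 of 14 alternatives, among them leaving out any 1 array, so SLC38A12 is a borderline case. With all 6 arrays, 6 of the 18 had an unadjusted p under 0.05 in limma, as did 4149 of all 14884 genes. These 4 calls depended on single arrays, and the share of all genes called was not recorded for fits that left out an array. Without replicate 1 or replicate 2 of shRNA#2, or replicate 2 of shRNA#4, limma called 0 of the 18 at an adjusted p under 0.05 and 6 at an unadjusted p under 0.05. Without replicate 1 of shRNA#4 it called 2, SLC9D1 and SLC68A1. For SLC49A4 the hairpins differed by -0.05 ± 0.052, for SLC66A1 by 0.01 ± 0.052 and for SLC71A1 by -0.05 ± 0.071, none of them called.

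Solute carriers depend on partner proteins that guide them to the membrane, anchor them there or maintain the gradients that drive them. Of 30 such genes listed, 20 were measured, and in the mean of both hairpins 8 fell and 3 rose (limma), 55% against 25.4% of all genes, with a median of -0.22. FXYD3, a regulator of the sodium pump, stood at 1.26 and 1.29 with scramble, -0.004 and -0.07 with shRNA#2 and -0.20 and 0.004 with shRNA#4. Both scramble arrays were high, and FXYD3 fell by 1.34 ± 0.066 (limma adjusted p 0.000225). NHERF4, a PDZ scaffold of the brush border, fell by 0.90 ± 0.106, the carbonic anhydrase CA2 by 0.63 ± 0.084 and PDZK1IP1, a small membrane partner of transporters, by 0.53 ± 0.10. Between the hairpins 5 of the 20 were called higher with shRNA#2 and 2 lower, 35% against 15.3% of all genes. CA2 was the largest difference upward, at -0.23 ± 0.097 with shRNA#2 and -1.04 ± 0.097 with shRNA#4, a difference of 0.81 ± 0.097 (limma adjusted p 0.00543). CLTRN was the largest downward, at -1.46 ± 0.17 (limma adjusted p 0.0049). Against scramble CLTRN fell by 1.06 ± 0.17 with shRNA#2 and was not called with shRNA#4 (0.40 ± 0.17), nor in the mean of both.

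A further 54 measured genes have an SLC symbol only among their RefSeq synonyms, and this list was added once the members were known. In the mean of both hairpins 8 of them fell and 7 rose (limma), 27.8% against 25.4% of all genes, with a median of -0.02. The share called was close to the background. XPR1, a phosphate exporter, was the largest rise, at -0.48 and -0.51 with scramble, 0.01 and -0.01 with shRNA#2 and 0.38 and 0.44 with shRNA#4. It rose by 0.70 ± 0.043 (limma adjusted p 0.000316). SFXN3, of the sideroflexin family of mitochondrial carriers, had the largest fall, by 1.06 ± 0.125 (limma adjusted p 0.00215), whereas SFXN4 rose by 0.61 ± 0.0445. XPR1, SFXN3 and SFXN4 were named after their values were seen. Of the solute carriers left out by the rule, the bile acid exporter subunits SLC51A and SLC51B were measured and both fell, and the carriers SLC25A15 and SLC25A2 gave 0.10 ± 0.082 and -0.03 ± 0.045 and were not called.

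Markers of cell state were read in the same contrast, in which 25.4% of all genes were called. All 9 measured of 13 enterocyte markers fell (limma), and their median value was 1.25 and 0.978 on the scramble arrays and between -0.0815 and -0.0288 on the hairpin arrays. Of 7 markers of proliferating cells 3 rose and 0 fell, and 5 had an unadjusted p under 0.05 in limma, as did 5318 of all 14884 genes. The hairpins differed in this list. With shRNA#2 5 of the 7 were called higher (median change 0.47), and with shRNA#4 2 were (median change 0.06). Their medians were -0.306 and -0.00332 with scramble, 0.135 and 0.103 with shRNA#2, and 0.00332 and -0.0564 with shRNA#4. The scramble arrays thus differed from each other in this list, and both shRNA#4 arrays were near replicate 2 of scramble. The medians of the 18 solute carriers were 0.107 and 0.0482 with scramble and between -0.0596 and 0.0253 with the hairpins, a far smaller step than that of the enterocyte list. Of 4 measured of 8 immune cell markers 3 fell (CD68, LAPTM5 and LYZ). CD14 went the other way, at 0.34 ± 0.098 (limma adjusted p 0.0519), and was not called. Medians of the 4 were 0.627 and 1.05 for scramble and between -0.279 and 0.0465 for the hairpins. CD68 and LAPTM5 encode lysosomal membrane proteins. Of 3 measured fibroblast markers 1 fell (THY1), with medians between -0.0113 and 0.0113 over all 6 arrays, and of 3 endothelial markers limma called 0, also at an unadjusted p under 0.05, with medians between -0.0163 and 0.00767. The part of these shifts in the solute carrier results was not tested. In RNA from a whole culture, fewer cells of a type and less RNA per cell cannot be told apart.

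**Figure D4:**
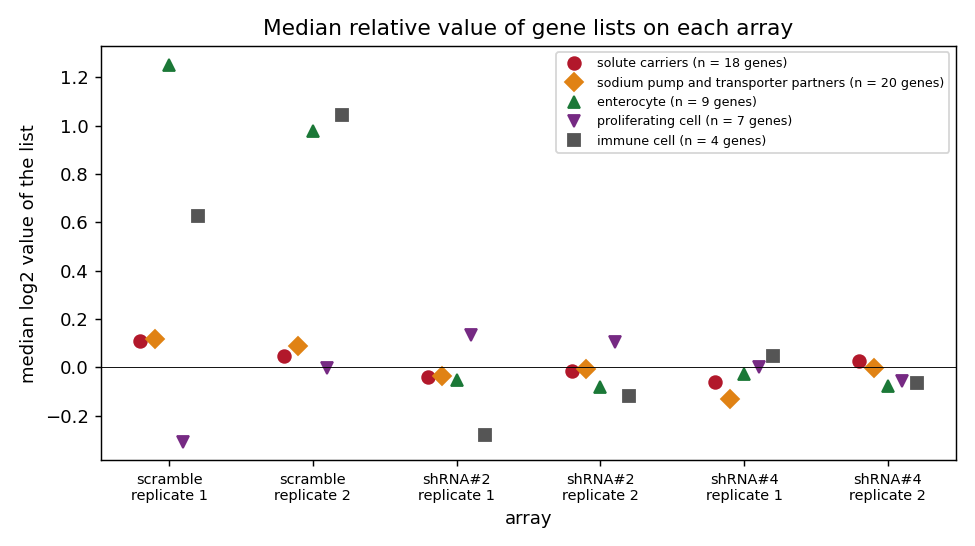
Median log2 value (y axis) of 5 gene lists on each of the 6 arrays (x axis), 1 symbol per list. Enterocyte markers stand at 1.25 and 0.978 on the scramble arrays and near 0 on the hairpin arrays, while the 18 solute carriers range only from -0.0596 to 0.107.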

How the data were processed

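The deposited table held log2 values of 48144 probe sets on 6 single-channel arrays, made by the authors. Each probe set was centred on its median over the 6 arrays, as read from the values, and the values ran from -2.65 to 3.53. The software, background correction, normalization between arrays and genome build behind them, and the logarithm's base, taken as log2, were not given in the sources used here. Per the labels' protocols, labelled DNA was prepared from 100 ng of RNA with the GeneChip WT PLUS kit. Groups and replicate numbers follow the titles. The titles call the replicates biological, but what separates those of the 1 cell line is not given. The p-values thus reflect the spread between these samples, whose source is not known, and the number of arrays limits the precision.

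The platform table gave 16098 probe sets 1 symbol, 0 several and 32046 none. Symbols were checked through Entrez IDs against RefSeq, and 0 changed. Probe sets of a gene were averaged. limma 3.58.1 (R 4.3.3) fitted all 6 arrays in 3 groups with moderated variances (no trend, 3.09 prior and 3 residual degrees of freedom), Benjamini-Hochberg adjustment ran over 14884 genes, and genes were called at an adjusted p under 0.05. The test was tested on simulated data with 14884 genes, of which 200 were changed, and independent normal noise. For the mean of both hairpins it recovered 97.3% of changes of 0.5 on the log2 scale with 5.19% false among the calls. It does not show how well smaller changes, such as the -0.25 of SLC67A2, are recovered, or how the test does with the larger share called in these data. Members and lists were chosen with earlier results of these data known. Named were up to 4 called members per substrate class with the largest change, every member called at 2-fold or more, members called between the hairpins, relatives of these, and up to 4 called genes of the partner list. The other members are given so that each is accounted for. Alternatives were leaving out each array, a robust prior, array weights, quantile normalization, arrays centred on their medians, a replicate block, stricter thresholds, the first probe set per gene, protein-coding genes, the 4 hairpin arrays as a single group, only the arrays compared and, chosen after seeing the data, all probe sets. A list of 11 SLCO transporters had no member named by the platform annotation. Promoters were read from RefSeq (GRCh38.p14). Figures were drawn with matplotlib 3.10.9.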

Additional observations from a re-analysis of the deposited data

Results flagged for a closer look

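The effects of the hairpins differed by the test of shRNA#2 against shRNA#4 (limma, adjusted p under 0.05) for 4 solute carriers. SLC9D1 was higher with shRNA#2 by 0.50 and SLC75A1 by 0.28 on the log2 scale. SLC68A1 gave -0.32 and SLC38A12 gave -0.26, both lower with shRNA#2. The call of SLC38A12 was borderline and ended in 10 of 14 alternatives. Replicates of each hairpin did not overlap with those of the other in these 4 genes, as in 54.5% of all genes. With 2 arrays per group no array could be tested as an outlier.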

How the results depend on the processing

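Of 68 recomputed counts of called solute carriers, 54 lay within 1.5 times the reported count. Apart from the 2-fold minimum for the mean, met by 1.38% of all genes, the share of all genes was not recorded for these settings. These counts can therefore not be set against a background. Leaving out 1 array gave 4 to 9 called for the mean of both hairpins (9 reported), 3 to 4 for shRNA#2 (3 reported), 5 to 10 for shRNA#4 (10 reported) and 0 to 3 between the hairpins (4 reported). At an adjusted p under 0.01 limma called 4 for the mean (SLC49A4, SLC66A1, SLC71A1 and SLC9D1) and 6 for shRNA#4. Between the hairpins it called 0 of the 18, of which 6 had an unadjusted p under 0.05, as did 4149 of all 14884 genes. With a 2-fold minimum 1 gene was called for the mean, 1 for shRNA#2, 1 for shRNA#4 and 0 between the hairpins. The 4 hairpin arrays as a single group gave 4 for the mean, 2 higher and 2 lower, and SLC66A3, SLC67A2, SLC71A2, SLC75A1 and SLC9D1 lost their calls. The causes were not tested, apart from thresholds that can only remove calls. With the replicate block 9, 4, 11 and 3 were called for the mean, shRNA#2, shRNA#4 and between the hairpins, with SLC9D1 gained for shRNA#2, SLC68A1 gained for shRNA#4 and SLC38A12 lost between the hairpins. Deviations of replicate 1 from the group mean correlated across genes at 0.179, 0.119 and 0.199 between groups, but 2 numbers per group and no label of a shared batch do not establish pairing. The 9 member changes called for the mean and the 4 called between the hairpins did not reverse under the 14 alternatives run for each, and other named values were not recomputed one by one. SLC49A4 ranged from -1.06 to -0.77 and SLC71A1 from 0.46 to 0.65 in the mean of both hairpins. Centring removed signal levels, so dim probe sets could not be filtered.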
